A study of Mus musculus with 23 samples.

Results

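Retinoid storage and signalling genes were examined in mouse lung: Lrat, Rbp4, Stra6, Rdh10, Dhrs3, Aldh1a1, Crabp1, Cyp26b1 and Rarb. Their members were all probe sets annotated with 1 of these symbols and no other, which gave 11 probe sets for 9 genes, of 34945 such probe sets for 18193 genes on the array and 45037 probe sets tested in all. Lrat was chosen by its fall in the lungs of C57BL/6 mice with cystic fibrosis (CF), and the other 8 genes by their function in vitamin A uptake, storage and action. Because Lrat was selected on that contrast, the values of CF against control in C57BL/6 are given below as a description, with no p-value for any of the 9 genes.

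Total RNA of the whole right lung, labelled with biotin, was measured on 23 arrays. Male and female mice of 2 inbred strains, C57BL/6 (B6 below) and BALB/c (BALB), were either CF-/- (CF) or CF+/+ (control) in genotype. Strain, sex and genotype made 8 groups, of which B6 CF males had 2 arrays and the others 3. The labels name no further allele or treatment, and neither the age of the mice nor the kind of Cftr mutation is given. Nothing in them shows that replicate arrays are from separate mice, so the p-values reflect only how far these samples spread, which may be technical. Values are log2 signals, so that a difference of 1 is a 2-fold difference, and levels are compared within a probe set only. The lung itself was evident on every array, with means of the alveolar type 2 marker list of 12.03 to 12.26.

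Vitamin A reaches tissues as retinol, carried in blood by retinol-binding protein. Lecithin retinol acyltransferase, the product of Lrat, esterifies retinol for storage, while dehydrogenases oxidise it first to retinal and then to retinoic acid, the ligand of the nuclear receptors RAR and RXR. In the lung, retinyl esters are known to be stored in lipid-laden fibroblasts of the alveolar wall, and retinoic acid takes part in alveolar formation and in the upkeep of airway epithelium.

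Some arrays had high signal for markers of tissues other than lung, and the source of this signal was not tested. The mean of 6 squamous epithelium markers was 7.0 to 8.95 in the 3 BALB CF females, 9.0 in B6 control male 3 and 6.05 in B6 control female 1, and 3.96 to 4.65 on all other arrays. The mean of 6 intestinal markers was 4.55 to 6.57 in the 6 BALB controls, 5.98 in B6 control female 1 and 5.32 in BALB CF female 1, and 3.79 to 4.05 on the rest. Cftr, the targeted gene, separated the genotypes in BALB (5.40 to 5.85 in controls, 3.49 to 4.42 in CF) but not in B6 (4.04 to 4.58 and 3.86 to 4.31), where its probe set therefore does not check the labels.

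Lrat and Rarb are themselves known retinoic acid-responsive genes, and the sequence before the start of each is shown with the motifs that retinoic acid receptors are known to bind. These are the 250 bases upstream of the RefSeq transcript start in GRCm38.p6, for Lrat chr3:82903975-82904224 and for Rarb chr14:16575477-16575726, both read 5′ to 3′ on the minus strand. Capitals mark each match on either strand to the motif AGGTCA or to its variants AGTTCA and GGGTCA and GGTTCA.
Lrat: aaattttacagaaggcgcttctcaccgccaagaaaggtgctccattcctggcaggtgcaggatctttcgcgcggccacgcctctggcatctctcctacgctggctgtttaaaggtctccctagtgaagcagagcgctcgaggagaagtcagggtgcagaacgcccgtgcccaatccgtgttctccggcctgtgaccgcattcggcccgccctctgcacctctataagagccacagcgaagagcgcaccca
Rarb: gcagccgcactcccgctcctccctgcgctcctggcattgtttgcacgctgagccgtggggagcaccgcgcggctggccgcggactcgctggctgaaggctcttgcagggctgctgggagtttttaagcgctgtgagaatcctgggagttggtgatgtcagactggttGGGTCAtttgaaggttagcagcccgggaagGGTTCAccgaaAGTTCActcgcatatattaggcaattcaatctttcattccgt
The Lrat window held 0 of these 6-base motifs. The Rarb window held 3 of them, and the pair nearest the start, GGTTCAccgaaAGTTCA, is a direct repeat with 5 bases between its parts that lies 53 to 37 bases upstream. Such a repeat was present in 29 of 32851 upstream windows (0.0883%), and repeats with 1 or 2 bases between the parts were present in 54 (0.164%) and 57 (0.174%). A single motif was far more common (12694 windows, 38.6%) and was found for Rarb, Aldh1a1 and Rbp4 among the 8 member genes with a sequence. These matches describe the sequence only.

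Lrat, which encodes the enzyme that makes retinyl esters for storage, had a lower signal in CF than in control lungs of B6, and a higher signal in females than in males. In B6 control females its brighter probe set, 1444487_at, read 8.44, 8.53 and 8.77, and in B6 CF females it read 6.83, 7.65 and 7.62. In B6 control males it read 7.77, 7.81 and 7.61, and in B6 CF males 6.83 and 6.96. Within each sex, every B6 CF array was below every B6 control array. The difference between CF and control in B6, which chose this gene, was -1.02 averaged over the sexes (SE 0.12, 95% interval -1.27 to -0.78), a 2.03-fold lower signal in CF. It was -1.21 in females (SE 0.16) and -0.83 in males (SE 0.18). Without B6 control female 1 and B6 control male 3, the arrays with squamous or intestinal signal, it was -1.09.

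In BALB lungs no CF difference in Lrat passed the test. BALB control females read 9.06, 9.14 and 9.09, and BALB CF females 9.27, 9.37 and 8.97. BALB control males read 8.75, 8.99 and 8.76, and BALB CF males 8.89, 8.67 and 8.77. The CF and control arrays overlapped in both sexes, and the difference was 0.02 (SE 0.11, 95% interval -0.21 to 0.26, adjusted p = 0.948, limma). The interval leaves out a fall of the size seen in B6, but that size chose the gene. No difference between the strains is concluded from this. With the squamous and intestinal means as covariates the BALB difference was 0.11 (SE 0.18). Those means differed between the BALB groups, so that fit cannot set them apart from genotype. The CF effect in BALB minus that in B6 was 1.05 (SE 0.16), given with no test because the B6 effect chose the gene.

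**Figure D1:**
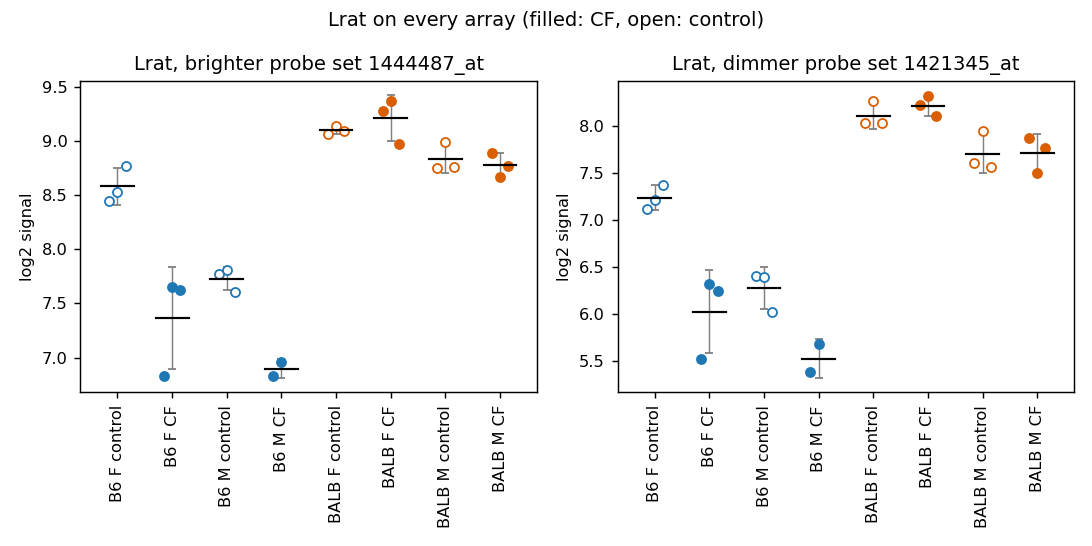
Log2 signal of both Lrat probe sets (y axis) on each of the 23 arrays, by strain, sex and genotype (x axis; F female, M male). Points are arrays (open control, filled CF), black bars are group means and grey bars the SD; within each sex the B6 CF arrays lie below the B6 control arrays, while the BALB CF and control arrays overlap.

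The second Lrat probe set, 1421345_at, gave the same order of groups apart from the BALB males, whose means were 7.71 in controls and 7.72 in CF, and correlated with the first at r = 0.99 over the 23 arrays. B6 control females read 7.12, 7.22 and 7.37 there and B6 CF females 5.53, 6.32 and 6.25. B6 control males read 6.41, 6.40 and 6.03 and B6 CF males 5.39 and 5.68. As on the first probe set, the CF arrays were the lower ones in both sexes of B6. The differences between CF and control were -0.97 in B6 (SE 0.13, no test) and 0.06 in BALB (SE 0.12, adjusted p = 0.862).

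Ordered by group mean on the brighter probe set, Lrat was highest in BALB CF females (9.21) and BALB control females (9.10), followed by BALB control males (8.83) and BALB CF males (8.78), then B6 control females (8.58), B6 control males (7.73), B6 CF females (7.37) and B6 CF males (6.90). Neighbours in that order were separated without overlap at 2 steps: between BALB control females and BALB control males, and between B6 control females and B6 control males. At the other 5 steps the arrays overlapped.

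BALB lungs had more Lrat signal than B6 lungs, also among controls. Within controls, every BALB array was above every B6 array of the same sex. The difference of control means was 0.81 on the brighter probe set (SE 0.11) and 1.15 on the other (SE 0.12). Averaged over genotypes and sexes the strains differed by 1.33 (SE 0.08, 2.52-fold, n = 12 and 11) and by 1.67 on the second probe set (SE 0.09). This average takes in the low B6 CF arrays, so that it holds the chosen difference in part. All these strain differences are given with no p-value, because they rest on the B6 arrays of the contrast that chose the gene. Lrat is among the genes counted as past the threshold between the strains below, and nothing is read from that. Whether the alleles of the strains differ in the sequence under the probes was not analysed here.

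Lrat was also higher in females than in males. Averaged over strains and genotypes the difference was 0.50 (SE 0.08, 1.42-fold, n = 12 and 11, adjusted p = 0.00199), and the second probe set gave 0.59 (SE 0.09, adjusted p = 0.000761). In 3 of the 4 pairs of groups matched for strain and genotype, every female array was above every male array. The exception was B6 CF, where females read 6.83, 7.65 and 7.62 and males 6.83 and 6.96. Within the strains, a comparison added after the values were seen, the difference was 0.66 in B6 (SE 0.12, adjusted p = 0.00919) and 0.35 in BALB (SE 0.11, adjusted p = 0.275). The strains' sex differences were not shown to differ (-0.32 as BALB minus B6, SE 0.16, 95% interval -0.65 to 0.02, adjusted p = 0.695). Nor was the CF effect on Lrat shown to differ between the sexes (female minus male -0.38 in B6, SE 0.24, adjusted p = 0.522, and 0.17 in BALB, SE 0.22, adjusted p = 0.849). Apart from those within BALB, these comparisons use the B6 arrays of the contrast that chose Lrat. Their p-values are therefore not free of that choice.

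In whole-lung RNA, fewer cells of a type and less RNA per cell cannot be told apart. The mean of 7 lipofibroblast markers, the cell type known for retinyl ester storage, was 8.17 to 8.33 in B6 controls, 8.12 to 8.34 in B6 CF, 8.11 to 8.46 in BALB controls and 8.13 to 8.47 in BALB CF. Its members, named here after their values were seen, went different ways. Wnt2 differed by -0.63 between CF and control in B6, by -0.51 in BALB and by 0.85 as BALB minus B6. Mfap5 differed by -0.15, 0.29 and -0.73 in these comparisons, and Lpl by 0.34, -0.20 and -0.25. The mean of 5 fibroblast matrix markers was 9.01 to 9.18 in B6 controls and 8.64 to 9.11 in B6 CF, and 8.58 to 9.05 in BALB controls and 8.78 to 9.15 in BALB CF. The CF differences of its 5 genes in B6 were all negative, from -0.42 for the collagen gene Col3a1 (SE 0.11) to -0.08 for Lum. In BALB Col3a1 differed by 0.19 (SE 0.11), and its CF effect in BALB minus that in B6 was 0.61 (adjusted p = 0.0371). It was the 1 of the 5 genes that passed in this comparison, beside 2.54% of all probe sets. The B6 list means overlapped in males (9.02 to 9.18 in controls, 8.93 to 9.11 in CF). In B6 females they did not (9.01 to 9.17 and 8.64 to 8.88). Pericyte and smooth muscle markers (8 genes) averaged 7.60 to 7.92 in B6 controls, 7.39 to 7.73 in B6 CF, 7.81 to 8.45 in BALB controls and 7.68 to 7.86 in BALB CF. The T cell list (4 measured genes) was 5.23 to 5.95 in B6 controls, 6.23 to 6.80 in B6 CF, 5.20 to 6.26 in BALB controls and 6.04 to 6.65 in BALB CF. Of 8 endothelial markers 6 were higher in BALB than in B6 and 0 were lower (12% and 11.8% of all probe sets), with list means of 9.34 to 9.66 in B6 controls and 9.58 to 9.90 in BALB controls. The part of these cell types in the Lrat differences was not tested.

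The genes whose signal followed Lrat most closely over the 23 arrays were Tspan13 (a tetraspanin, r = 0.92), Dpp4 (a cell-surface peptidase, r = 0.90), the Notch ligand gene Dll4 (r = 0.90), Ccn4 (a matricellular protein gene, r = 0.90), Adgrg6 (an adhesion G protein-coupled receptor gene, r = 0.89) and Sptbn1 (a spectrin gene, r = 0.89). The arrays share strain, sex and genotype, and these correlations are a description. Choosing genes by likeness to Lrat also fixed in part that their strain and B6 CF differences have its signs. After the group means were taken out, the same genes correlated with Lrat at 0.22 to 0.57, with Sptbn1 the highest. All 6 were higher in BALB than in B6 by their fitted differences, from 0.36 for Tspan13 to 1.46 for Ccn4, and all 6 had negative B6 CF differences, from -0.18 for Sptbn1 to -0.51 for Ccn4. Their BALB CF differences were 0.22 for Ccn4, 0.14 for Sptbn1, 0.08 for Dpp4, -0.05 for Tspan13 and -0.14 for both Dll4 and Adgrg6.

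For the genes of retinol supply no difference passed the test. Rbp4, which encodes the retinol carrier of plasma, read 7.27 to 7.84 in B6 and 7.26 to 7.89 in BALB. BALB control females read 7.53, 7.89 and 7.63 and BALB CF females 7.35, 7.26 and 7.79, and the males read 7.34 to 7.51 and 7.46 to 7.55. The groups overlapped, and the CF difference in BALB was -0.07 (SE 0.08, 95% interval -0.24 to 0.11, adjusted p = 0.758). Stra6, the cell-surface receptor that takes up retinol from its carrier, read between 3.83 and 4.26 on every array, below the median probe set of the array (4.59), where without a detection call a signal cannot be told apart from background. Its CF difference in BALB was 0.01 (SE 0.07, 95% interval -0.13 to 0.15, adjusted p = 0.964).

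Of the enzymes that interconvert retinol and retinal, Rdh10 oxidises retinol and Dhrs3 reduces retinal back to it. Dhrs3 read 8.01, 8.38 and 8.30 in B6 control females and 8.14, 8.0 and 8.06 in B6 CF females. In B6 males it read 8.35, 8.38 and 8.32 in controls and 8.28 and 7.98 in CF. The male CF arrays were below the male controls and the female arrays overlapped, with a difference of -0.19 over both sexes (SE 0.07, no test). In BALB, Dhrs3 read 8.08 to 8.25 in controls and 7.97 to 8.20 in CF, and the difference was -0.10 (SE 0.07, 95% interval -0.24 to 0.05, adjusted p = 0.512).

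The 2 probe sets of Rdh10 went opposite ways between the strains. On the brighter, 1426968_a_at, B6 arrays read 7.27 to 7.63 and BALB arrays 7.15 to 7.49, a difference of BALB minus B6 of -0.12 (SE 0.05, adjusted p = 0.0639). On the dimmer, 1460632_at, B6 arrays read 5.46 to 5.95 and BALB arrays 5.74 to 6.23, a difference of 0.25 (SE 0.05, 95% interval 0.14 to 0.36, adjusted p = 0.000985). With replicate number as a block the latter was 0.19 (adjusted p = 0.184). That fit gives the strain difference for replicate number 1 only, so it does not check the averaged one. As the probe sets went opposite ways, a direction for Rdh10 between the strains was not settled by these arrays. On neither probe set did the CF difference in BALB pass (-0.04, SE 0.06, adjusted p = 0.827, and -0.10, SE 0.07, adjusted p = 0.543).

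Aldh1a1, a retinal dehydrogenase that makes retinoic acid, was among the brightest probe sets of the lung, above 99.9% of all, at 11.83 to 12.35. BALB females read 12, 12.11 and 12.03 in controls and 12.02, 11.83 and 11.88 in CF. BALB males read 12.35, 12.22 and 12.12 in controls and 12.34, 12.26 and 12.33 in CF. No BALB female array reached a BALB male array, whereas in B6 the females (11.89 to 12.22) and males (11.97 to 12.23) overlapped. The sex difference was -0.29 in BALB, females lower (SE 0.06, 1.23-fold, adjusted p = 0.041), in a comparison added after the values were seen. This call was lost without B6 control male 1 (adjusted p = 0.0552) or 2 (0.0569), B6 control female 3 (0.0512), or any one of 10 of the 12 BALB arrays (0.0568 to 0.143), with BALB arrays alone (0.101), and with the squamous and intestinal means as covariates (-0.35, adjusted p = 0.0855). It was -0.05 in B6 (SE 0.06, adjusted p = 0.822), and the strains were not shown to differ in it (-0.24 as BALB minus B6, SE 0.09, adjusted p = 0.567). Over both strains the sex difference of -0.17 (SE 0.04) missed the threshold at an adjusted p of 0.0553. Aldh1a1 has a close paralog, Aldh1a7, and how far its probes also bind that transcript was not analysed here. The CF difference in BALB was -0.03 (SE 0.06, 95% interval -0.16 to 0.10, adjusted p = 0.862).

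Crabp1, which encodes a cytosolic binding protein of retinoic acid, read 3.27 to 3.72, below the median probe set on every array. B6 arrays read 3.37 to 3.72 and BALB arrays 3.27 to 3.63, and the strain difference of -0.14 (SE 0.05) did not pass (95% interval -0.24 to -0.03, adjusted p = 0.0592). Under 8 of the alternatives it did (adjusted p = 0.0126 to 0.0485).

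Cyp26b1, the cytochrome P450 that breaks down retinoic acid, had the widest spread of these genes between arrays of a group. BALB CF females read 8.58, 7.0 and 8.53 against 6.76, 6.83 and 5.52 in BALB control females. BALB CF males read 7.0, 5.09 and 6.17 against 5.13, 6.26 and 5.93 in controls. Each BALB CF female was above each control female, and the males overlapped. The difference was 1.67 in females (SE 0.52, 95% interval 0.58 to 2.76, adjusted p = 0.117), 0.32 in males (SE 0.52, adjusted p = 0.855) and 0.99 over both (SE 0.37, 95% interval 0.22 to 1.76, adjusted p = 0.138), so none passed. The 3 BALB CF females were also those with squamous marker means of 7.0, 7.5 and 8.95 and skeletal muscle means of 6.77, 7.26 and 9.11. The other arrays with squamous signal, B6 control male 3 (mean 9.0) and B6 control female 1 (mean 6.05), read 5.79 and 5.43 for Cyp26b1. The part of these tissues in the Cyp26b1 values was not tested. With the squamous and intestinal means as covariates the BALB difference was 1.0 (SE 0.55, adjusted p = 0.602). In B6, Cyp26b1 read 5.43, 6.58 and 7.28 in control females, 5.04, 5.87 and 6.18 in CF females, 6.89, 6.81 and 5.79 in control males and 7.08 and 6.68 in CF males. The CF difference there was -0.17 (SE 0.39, no test), and that in BALB minus that in B6 was 1.17 (SE 0.54, adjusted p = 0.298).

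Rarb, the retinoic acid receptor whose gene carries the direct repeat shown above, is a classical target of its own ligand. It read 5.61, 5.38 and 5.37 in B6 control females and 5.04, 4.92 and 5.38 in B6 CF females. In B6 males it read 4.78, 5.37 and 4.73 in controls and 5.24 and 5.15 in CF. The CF differences were thus of opposite sign in the sexes, -0.34 in females (SE 0.14) and 0.24 in males (SE 0.16), but this contrast of the sexes (-0.58, SE 0.21) did not pass (adjusted p = 0.187). Without B6 control male 2, the highest of its group, it was -0.78 (adjusted p = 0.0401). BALB control females read 5.40, 5.20 and 5.17 and BALB CF females 4.85, 5.03 and 5.16, while BALB control males read 4.86, 4.92 and 5.11 and BALB CF males 5.15, 5.12 and 5.23. Within each sex the BALB CF and control arrays narrowly did not overlap (nearest arrays 5.16 and 5.17 in females, 5.12 and 5.11 in males). CF arrays were the lower ones in females and the higher ones in males. How often all probe sets separate in this way was not counted. The differences were -0.25 in females (SE 0.14, adjusted p = 0.424) and 0.20 in males (SE 0.14, adjusted p = 0.576), and the contrast of the sexes was -0.45 (SE 0.20, adjusted p = 0.484). Averaged over the sexes the BALB difference was -0.02 (SE 0.10, 95% interval -0.23 to 0.19, adjusted p = 0.954).

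**Figure D2:**
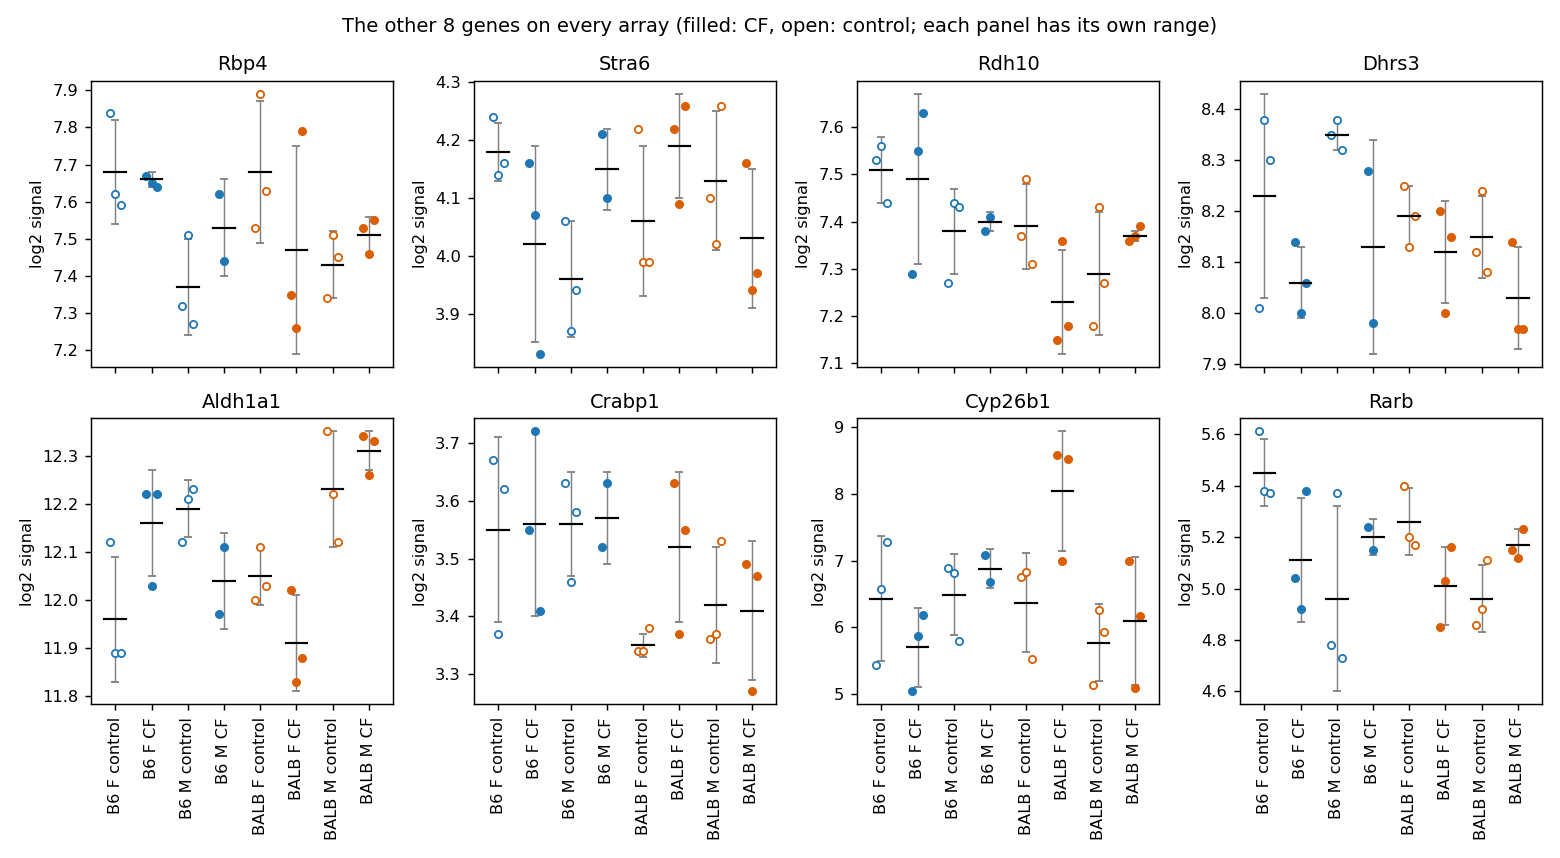
Log2 signal (y axis, its own range in each panel) of the other 8 retinoid genes on each array, by strain, sex and genotype (x axis; F female, M male). Points are arrays (open control, filled CF), black bars group means and grey bars the SD; BALB females lie below BALB males for Aldh1a1, and the BALB CF female mean is the highest for Cyp26b1.

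Counted over the 9 genes, each by its brightest probe set, few passed the threshold of an adjusted p under 0.05. For CF against control in B6, 1 of 9 passed, Lrat itself, beside 4.71% of all probe sets, and nothing is read from this count because the contrast chose the gene. For CF against control in BALB, 0 of 9 passed, beside 4.92% of all probe sets (2.6% higher and 2.33% lower), with 1 of 9 at an unadjusted p under 0.05, Cyp26b1. The median difference over the 9 genes was 0.00 in B6 and -0.02 in BALB, and that of all probe sets was 0.00 in both. For the difference of the CF effect between strains, 1 of 9 passed, again Lrat by way of the chosen contrast, beside 2.54%.

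Between the strains, 1 of 9 genes passed, Lrat, higher in BALB, beside 23.7% of all probe sets (12% higher, 11.8% lower), and nothing is read from this count. The median difference of the 9 genes was -0.04 beside 0.03 for all probe sets. Between the sexes 1 of 9 passed, Lrat, higher in females, beside 1.29% of all probe sets (0.513% higher and 0.775% lower in females). Within B6 this was 1 of 9 (Lrat), beside 0.624%, and within BALB 1 of 9 (Aldh1a1, lower in females), beside 0.262%. Where Lrat is the gene counted, the B6 arrays of the contrast that chose it are used, and nothing is read from the count. For the difference of the sex effect between strains 0 of 9 passed in limma, with 2 at an unadjusted p under 0.05, beside 0.00222% of all probe sets. The CF effect differed between the sexes for 0 of 9 genes in B6, with 3 at an unadjusted p under 0.05, beside 1.75% of all probe sets, and for 0 of 9 in BALB, with 1 at that level, beside 0.0178%.

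**Figure D3:**
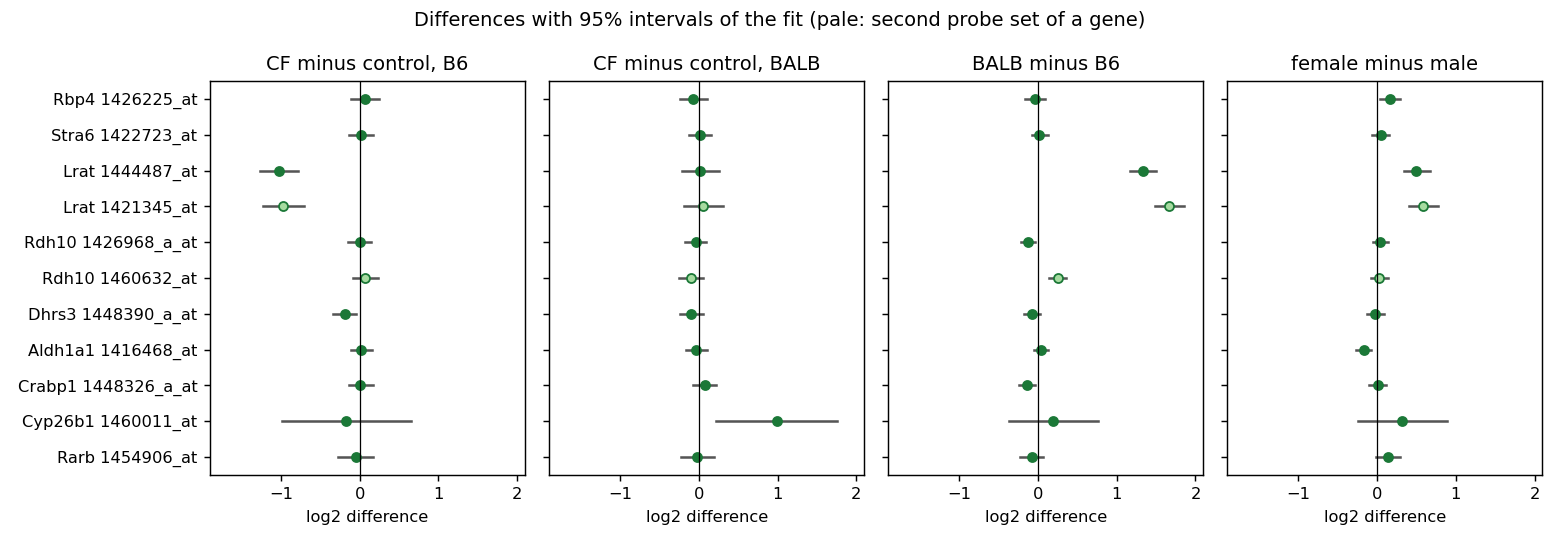
Log2 differences (x axis) of all 11 probe sets of the 9 retinoid genes (y axis) in 4 comparisons, with 95% intervals of the limma fit; pale points are the second probe set of a gene. Lrat stands at -1.02 and -0.97 for CF in B6, at 1.33 and 1.67 between the strains and at 0.50 and 0.59 between the sexes, and the Rdh10 probe sets lie on opposite sides of 0 between the strains.

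Beyond these 9 genes, a list of 76 other genes of the pathway was counted by role, of which 67 had a probe set with 1 symbol. For CF against control in BALB, 0 of 67 were higher and 2 were lower, near the shares of all probe sets (2.6% and 2.33%), with a median of -0.01. These were Rbp7, a cellular retinol-binding protein gene (-0.52, SE 0.11, adjusted p = 0.0101), and Scarb1, a receptor for lipoproteins that also takes up carotenoids (-0.43, SE 0.08, adjusted p = 0.00253). With the squamous and intestinal means as covariates neither passed (-0.65, SE 0.19, adjusted p = 0.207, and -0.39, SE 0.13, adjusted p = 0.308). Those means differed between the BALB groups, so this fit had larger SEs and cannot set them apart from genotype there. Rbp7 averaged 4.0 over all arrays, below the median probe set. In B6, where the contrast is a description, Scarb1 differed by -0.39 (SE 0.08), Lrp2, the endocytic receptor megalin, by -0.50 (SE 0.13) and Rbp7 by -0.17 (SE 0.12), and the median of the 67 was -0.02. The CF effect differed between strains for 1 of 67 (2.54% of all probe sets), Pnpla2, a lipid droplet triglyceride lipase gene (-0.67 as BALB minus B6, SE 0.15, adjusted p = 0.0168), though not by the mean of its probe sets (-0.36, adjusted p = 0.128). Its CF difference was 0.37 in B6 (SE 0.11) and -0.30 in BALB (SE 0.10, adjusted p = 0.0889).

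Between the strains 12 of 67 were higher in BALB and 7 lower, with a median of 0.04. These counts, and those by role that follow, stand beside 12% higher and 11.8% lower over all probe sets, so that the list as a whole was near the array's share. Among 12 retinoic acid target genes 5 were higher and 0 lower, led by Rarres2, which encodes the chemoattractant chemerin (0.89, SE 0.06, adjusted p = 4.73e-11), and 3 of these 5 averaged below the median probe set. Among 20 genes of retinol and retinal oxidation and reduction 3 were higher and 4 lower. Rdh13, a mitochondrial retinol dehydrogenase gene, was higher (0.39, SE 0.05, adjusted p = 6.5e-06), at a mean of 4.69, near the median probe set (4.59). Adh7, named here for its size after the values were seen, was lower (-0.80, SE 0.11, adjusted p = 1.25e-05). Of 4 genes of retinoic acid synthesis 1 was higher and 1 lower. Aldh1a2, a retinal dehydrogenase gene, was higher in BALB (0.34, SE 0.10, adjusted p = 0.0167), though not without B6 CF male 1 (0.26, adjusted p = 0.0786) or without B6 control female 1 and B6 control male 3 (0.26, adjusted p = 0.0539). Its relative Aldh1a7 was lower (-0.68, SE 0.05, adjusted p = 1.99e-09), and Aldh1a3 did not pass (0.04, SE 0.04, adjusted p = 0.457). Bco2, a carotenoid-cleaving oxygenase gene, was lower in BALB (-0.40, SE 0.06, adjusted p = 1.22e-05), at a mean of 3.60, below the median probe set. Of 12 nuclear receptor and cofactor genes 2 were higher and 1 lower. Rxra, the partner receptor of RARs, was lower (-0.17, SE 0.04, adjusted p = 0.00691), but did not pass by the mean of its probe sets (-0.01, adjusted p = 0.884). Rara did not pass (0.03, SE 0.06, adjusted p = 0.76). With replicate number as a block, the fit gives the strain difference for replicate number 1 only. That difference was -0.10 for Rxra (adjusted p = 0.517), and 9 of the 67 passed, against 19 for the averaged difference. The block fit therefore does not check the averaged difference.

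Between the sexes 0 of 67 were higher in females and 1 was lower (0.513% and 0.775% of all probe sets), Ces1f, a carboxylesterase gene (-0.58, SE 0.09, adjusted p = 0.0023). Ttr, the plasma partner of retinol-binding protein, and Cyp26a1, another enzyme of retinoic acid breakdown, passed in no comparison tested: their CF differences in BALB were -0.10 (SE 0.06, adjusted p = 0.489) and -0.08 (SE 0.11, adjusted p = 0.791). Cyp26a1 averaged 3.80, below the median probe set. Rara differed between CF and control in BALB by 0.19 (SE 0.08, adjusted p = 0.217).

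**Figure D4:**
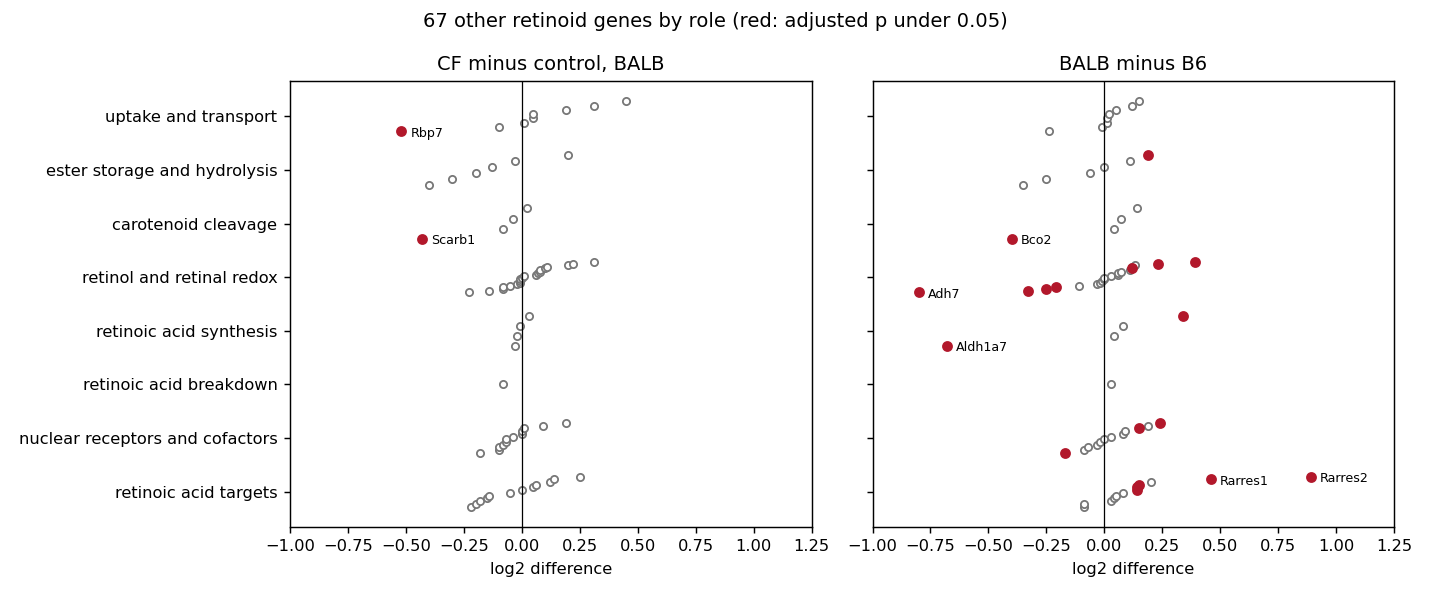
Log2 differences (x axis) of the 67 other retinoid genes by role (y axis) for CF against control in BALB and for BALB against B6; red points have an adjusted p under 0.05, and the names shown are those of the largest such differences, chosen after the values were seen. Of the 67, 2 are red on the left and 19 on the right, where Rarres2 lies farthest to the right at 0.89 and Adh7 farthest to the left at -0.80.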

How the data were processed

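The values were the deposited log2 signals of 23 arrays, taken as log2 from their continuous range of 1.79 to 13.82. Array medians lay between 4.56 and 4.64. How the authors summarised probes and normalized arrays is not given in the sources used here, and the files hold no background or detection call. The number of arrays limits the precision. Gene symbols came from the platform annotation: 34945 probe sets had 1 symbol, 932 several and 9160 none. The 64 control probe sets were left out.

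The means of all 8 groups were fitted over 45037 probe sets with limma 3.58.1 (R 4.3.3, lmFit and eBayes). The residual degrees of freedom were 15 and those of the prior 5.81, and all groups share 1 estimate of the spread. P-values are two-sided and adjusted by Benjamini-Hochberg over all probe sets within a comparison (threshold 0.05). CF and sex effects are averaged over the other factors. The fit was tested on simulated data. Same-numbered arrays of different groups showed no common deviation in the median (r -0.03 over 33 pairs, from -0.17 to 0.18). The main fit therefore used no pairing by number, though a pairing of some arrays is not excluded.

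The 9 genes and the pathway and marker lists were chosen with earlier results of these data known. Each gene is given by its probe set of highest mean, and a further probe set where it differs. From the pathway list up to 4 called genes of lowest p were named per comparison, and Ttr, Aldh1a2, Aldh1a3, Cyp26a1, Rara and Rxra whatever their values. Adh7 was added to these for the size of its strain difference. Genes like Lrat are the 6 of highest Pearson r among those at or above the median signal. Comparisons of the sexes within a strain, and the fits with marker covariates or without 2 B6 control arrays, were chosen after seeing the data. Promoter sequences are RefSeq's (GRCm38.p6), found for 8 of 9 genes in 15 windows. Alternatives covered the scaling, array weights, variance prior, dim probe sets, probe set choice, strains alone, replicate block and each array left out.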

Additional observations from a re-analysis of the deposited data

Results flagged for a closer look

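For Lrat the fitted CF effects of the strains lay apart. The BALB effect minus the B6 effect was 1.05 (log2, SE 0.16) on the brighter probe set and 1.03 (SE 0.17) on the other, with Lrat lower in B6 CF lungs of both sexes and overlapping the controls in BALB. No p is given and no difference is concluded, because the value is mostly the B6 effect, which chose the gene. Groups of 3 arrays are too small for the check of single deviating arrays, which was not run.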

How the results depend on the processing

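For Lrat, the CF difference in B6 was -1.11 to -0.89, the strain difference 1.27 to 1.53 and the sex difference 0.47 to 0.57. These ranges cover every alternative that gave a value: 23 that left out 1 array, 8 others and 2 added after seeing the data. They rest on the B6 arrays of the contrast that chose Lrat, so no p is given with them. The strain difference of 1.53 came from the replicate block, which compares the strains for replicate number 1 only. The BALB CF difference of Lrat, 0.02, was -0.01 with array weights and -0.02 to 0.08 with 1 array left out. With the squamous and intestinal means as covariates it was 0.11 (SE 0.18).

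In the main fit 23.7% of all probe sets passed between the strains and 1.29% between the sexes. For the CF effect between the sexes in B6 the share was 1.75%. Shares under the alternatives are not given here, so nothing is read from how the counts below move. Of the 9 genes, the number that passed between the strains was 1, Lrat. It was 2 with quantile normalization, array median centring, array weights or the mean of all probe sets of a gene, 2 among the 7 genes at or above the median signal, and 1 to 2 with 1 array left out. The added gene was Crabp1 or Rdh10. Rdh10 by the mean of its probe sets was 0.07 in place of -0.12. Between the sexes 1 passed, and 2 with quantile normalization, array weights, a variance prior by mean signal, only probe sets at or above the median, the mean of all probe sets, or either added alternative, and 1 to 2 with 1 array left out. The added gene was Aldh1a1 (adjusted p 0.00813 to 0.0463). For the CF effect between the sexes in B6 the count was 0, and 0 to 1 with 1 array left out. Of 67 other pathway genes 19 passed between the strains, 13 to 20 with 1 array left out, and 9 with the replicate block. Beside Rdh10's dimmer probe set and Aldh1a1 within BALB (adjusted p = 0.0934), the replicate block changed no other call among the 9 genes. Between the strains the replicate block gives the difference for replicate number 1 only, so it does not check the averaged difference. Fits of 1 strain alone give no strain or pooled sex difference. Where a B6 CF male was left out, the lone array was assumed to vary like the other groups.

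The spread between arrays limits these data: the BALB CF interval of Cyp26b1 spanned 0.22 to 1.76, and Stra6 and Crabp1 lay below the median signal.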
